A study of Mus musculus with 12 samples.

Results

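The genes described are the constant region genes of immunoglobulins, the antibodies and antigen receptors of B cells. Members were the 10 rows of the deposited gene table named Ighm, Ighd, Ighg3, Ighg1, Ighg2b, Ighg2c, Ighe, Igha, Igkc and Iglc2, out of 54532 genes. They were chosen by name, with earlier results of these data known. RNA was sequenced from mouse B lymphocytes in 4 groups of 3 libraries, namely cells labelled Tmem173-/- with cGAMP, cells labelled Tmem173-/- without it, wild type cells with cGAMP and wild type cells without it. Tmem173 encodes STING, an endoplasmic reticulum protein that binds cyclic dinucleotides, and 3'3'-cGAMP is such a dinucleotide, given here for 12 hours. The control groups received no cGAMP as far as the labels say, and strain and age of the mice are not given in the sources used here.

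An antibody joins a pair of heavy chains to a pair of light chains, and the constant region of the heavy chain sets its class. Resting naive B cells splice one long transcript to either Ighm or Ighd, and so carry IgM and IgD with the same binding site. After activation, class switch recombination can replace Ighm by a downstream gene for IgG, IgE or IgA. The light chain carries either the kappa constant region, Igkc, or a lambda one, Iglc1, Iglc2 or Iglc3, and Iglc4 is a further lambda gene of the mouse. Gene-level counts do not separate the membrane form of a heavy chain from the secreted form, nor a rearranged transcript from the germline transcript that precedes switching.

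The heavy chain members lie on the minus strand of chromosome 12 of GRCm38, in the order in which switching meets them. They are Ighm (chr12:113418558-113422730), Ighd (chr12:113406604-113416324), Ighg3 (chr12:113356224-113361232), Ighg1 (chr12:113325240-113330523), Ighg2b (chr12:113302965-113307933), Ighg2c (chr12:113285325-113288932), Ighe (chr12:113269260-113273248) and Igha (chr12:113254830-113260236). Igkc lies on the plus strand at chr6:70726435-70726966, and Iglc2 on the minus strand at chr16:19198396-19200351. The other lambda genes are Iglc4 (chr16:19194999-19195312), Iglc3 (chr16:19065230-19065681) and Iglc1 (chr16:19061618-19062071), all on the minus strand.

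The members came from duplicated ancestors, so the first 90 bases of the constant region are shown for the 2 pairs that shared the most sequence (Iglc2 and Iglc3, Ighg2b and Ighg2c) and, as a contrast, for Iglc1, Ighm and Ighd, which shared no window with another gene. They are read from GENCODE M21 transcripts on GRCm38, 5′ to 3′ in the sense of the gene, on the minus strand. Capitals mark bases that differ from Iglc2 (in Iglc3 and Iglc1) or from Ighg2b (in Ighg2c), as aligned over the whole constant region. The stretches lie at chr16:19198764-19198853 (Iglc2), chr16:19065592-19065681 (Iglc3), chr16:19061982-19062071 (Iglc1), chr12:113307844-113307933 (Ighg2b), chr12:113288843-113288932 (Ighg2c), chr12:113422641-113422730 (Ighm) and chr12:113416235-113416324 (Ighd).
Iglc2: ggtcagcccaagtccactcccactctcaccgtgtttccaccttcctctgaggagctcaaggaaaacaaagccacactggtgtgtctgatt
Iglc3: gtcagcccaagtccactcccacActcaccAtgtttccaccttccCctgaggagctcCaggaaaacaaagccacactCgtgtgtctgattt
Iglc1: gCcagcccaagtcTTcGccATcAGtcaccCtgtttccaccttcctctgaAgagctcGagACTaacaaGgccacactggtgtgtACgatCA
Ighg2b: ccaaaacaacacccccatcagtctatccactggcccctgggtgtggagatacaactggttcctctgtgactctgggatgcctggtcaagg
Ighg2c: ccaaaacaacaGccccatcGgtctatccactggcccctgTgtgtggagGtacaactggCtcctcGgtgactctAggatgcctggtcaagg
Ighm: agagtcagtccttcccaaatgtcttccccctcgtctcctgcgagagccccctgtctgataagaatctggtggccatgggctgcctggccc
Ighd: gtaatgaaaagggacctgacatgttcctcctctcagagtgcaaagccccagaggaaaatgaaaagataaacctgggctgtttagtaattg

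Iglc3 and Iglc2 had the same base at 431 of 452 aligned positions (95.4%), Iglc1 and Iglc2 at 68.8%, and Iglc4 and Iglc2 at 74.2%. Ighg2c was 82.6% identical to Ighg2b, which was also 76.5% identical to Ighg1 and 76.2% to Ighg3. Of all windows of 50 exonic bases, 22.3% of those of Iglc3 occurred in another gene, 43 of them in Iglc2, and 47 in the antisense gene 2010309G21Rik. The share was 7.65% for Iglc2, 5.49% for Ighg2c, 4.15% for Ighg2b, 1.58% for Ighg3 and 0.393% for Ighg1. Ighm, Ighd, Igha, Ighe, Igkc, Iglc1 and Iglc4 had no such window. Values of Iglc2 and Iglc3, and of Ighg2b and Ighg2c, are therefore uncertain to the extent that the counting split or dropped shared reads. The antisense gene 2010309G21Rik overlaps Iglc3 by 93 exonic bases, and strand use in the counting is not given in the sources used here.

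Tmem173 RNA was measured as the check of the labels. It stood at 82.9, 101 and 95.9 CPM in cGAMP libraries labelled Tmem173-/- and at 80.2, 94.7 and 103 CPM in their controls, against 44.7, 49.2 and 48.0 CPM in wild type cGAMP libraries and 91.2, 102 and 92.7 CPM without cGAMP. CPM are read counts relative to the TMM-scaled library total. The transcript was thus not lower in controls labelled Tmem173-/- than in wild type controls, and a count over the whole gene does not show the state of an allele. Directions between genotypes below rest on the labels. Total counts per library were between 26490593 and 31417833, and 18556 to 19727 genes were detected in each.

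B cell markers were abundant in all libraries. The summed level of 8 B cell markers was 6716 to 8178 CPM in cGAMP libraries labelled Tmem173-/- and 7029 to 7819 CPM in their controls, against 3922 to 4772 CPM in wild type cGAMP libraries and 6571 to 7797 CPM in wild type controls. In bulk RNA, fewer cells of a type and less RNA per cell cannot be told apart. Summed markers of plasma cells, the antibody-secreting end stage, were at 872 to 894 CPM, 900 to 939 CPM, 815 to 949 CPM and 875 to 925 CPM in the same order of groups. Of 7 tested plasma cell markers, 3 were lower in wild type cells with cGAMP by edgeR (Prdm1, Xbp1 and Sdc1) and 1 higher (Slamf7). Among all genes, 25.4% were lower and 22.4% higher. The marker Tnfrsf17 had no counts in either cGAMP group, but was below the filter on low counts and not tested. Markers of T cells summed to 182 to 200 CPM in cGAMP libraries labelled Tmem173-/- and 175 to 222 CPM in their controls, against 123 to 152 CPM in wild type cGAMP libraries and 210 to 237 CPM in wild type controls. Those of monocytes and macrophages summed to 46.0 to 61.3 CPM in cGAMP libraries labelled Tmem173-/- and 48.8 to 58.2 CPM in their controls, against 10.7 to 18.7 CPM in wild type cGAMP libraries and 36.3 to 46.5 CPM in wild type controls. Of 5 tested markers in each list, 2 were lower in wild type cells with cGAMP by edgeR (Lck and Cd5 for T cells, Adgre1 and Ms4a7 for monocytes and macrophages) and none was higher. These sums were thus lowest in the same 3 libraries as Ighm and Ighd, and their part in the members' values was not tested. NK cell markers stayed at or below 2.62 CPM and erythroid markers at or below 2.57 CPM. Neutrophil markers reached 23.7 CPM in wild type cGAMP replicate 1 and 9.12 CPM in wild type control replicate 1, and were at or below 1.77 CPM elsewhere, with Ly6g at 0 in all libraries.

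Transcripts of the unswitched classes and of both light chain types made up nearly all constant region RNA. In deposited FPKM the order was the same in all 4 groups, with Igkc first, then Ighm, Ighd and Iglc2. Neighbours among these did not overlap within any group. The gene length behind these FPKM was shorter than the listed exonic length for every member but Igkc. Set per listed exonic length, the order of the group means was the same, but Ighd and Iglc2 lay closer. Their means were then 525 and 481 in wild type cGAMP libraries. Single libraries of Ighd and Iglc2 then overlapped in every group but the controls labelled Tmem173-/-. Igkc averaged 4314 ± 164 FPKM in cGAMP libraries labelled Tmem173-/- and 4176 ± 84.0 FPKM in their controls, against 4176 ± 442 FPKM in wild type cGAMP libraries and 4497 ± 336 FPKM in wild type controls (SD, n = 3 each). Ighm averaged 1989 ± 137 and 2021 ± 55.8 FPKM in cGAMP and control libraries labelled Tmem173-/-, against 1583 ± 23.8 and 1982 ± 115 FPKM in wild type cGAMP and control libraries. Ighd averaged 1241 and 1273 FPKM in the cGAMP and control libraries labelled Tmem173-/- and 765 and 1112 FPKM in the wild type cGAMP and control libraries. Iglc2 averaged 879, 759, 554 and 790 FPKM in the same order of groups.

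The switched classes were far lower. No single library had more than 36.5 FPKM of any of them, a value reached by Ighg2c in wild type control replicate 2. By their means within groups, Ighg2b and Ighg2c stood first among them with overlapping ranges, then Igha and Ighg3, also with overlapping ranges, then Ighg1. Ighe was last in every group, with 4, 13, 6 and 6 counts summed over the 3 libraries of cGAMP and control groups labelled Tmem173-/- and of wild type cGAMP and control groups. Its counts were 3, 1 and 0 in cGAMP libraries labelled Tmem173-/- and 7, 3 and 3 in their controls, against 0, 5 and 1 in wild type cGAMP libraries and 3, 2 and 1 in wild type controls. At this depth 10 of the 12 libraries held no more than 3 counts, and Ighe was below the filter on low counts and not tested. The other 9 members were tested.

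Ighm encodes the heavy chain of IgM, the first class a B cell makes. It stood at 3192, 3432 and 2895 CPM in cGAMP libraries labelled Tmem173-/- and at 3217, 3189 and 3199 CPM in their controls. In wild type cells it stood at 2506, 2464 and 2458 CPM with cGAMP and 3226, 3287 and 3239 CPM without. The 3 wild type cGAMP libraries lay below all other 9, and the controls of both genotypes lay within a narrow band. In wild type cells Ighm fell by 23.8% with cGAMP (log2 fold change -0.39, SE 0.10, edgeR quasi-likelihood adjusted p = 0.00395, n = 3 each). In cells labelled Tmem173-/- the log2 fold change was -0.01 (SE 0.10, edgeR adjusted p = 1). The difference between these responses was 0.38 (SE 0.14) with an edgeR adjusted p of 0.0495, and it missed the threshold of 0.05 in 15 of 21 alternatives, with adjusted p up to 0.143.

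Ighd encodes the heavy chain of IgD, which mature naive B cells carry beside IgM. It stood at 1449, 1845 and 1561 CPM in cGAMP libraries labelled Tmem173-/- and at 1454, 1697 and 1786 CPM in their controls. Wild type cells had 887, 1069 and 981 CPM with cGAMP and 1289, 1636 and 1549 CPM without. Again the 3 wild type cGAMP libraries were lower than all other 9, with replicate 1 lowest in each of the 4 groups. Ighd fell by 34.4% with cGAMP in wild type cells (log2 fold change -0.61, SE 0.13, edgeR adjusted p = 0.000962). The log2 fold change was -0.02 (SE 0.13) in cells labelled Tmem173-/-, and the responses differed by 0.58 (SE 0.18, edgeR adjusted p = 0.0209). That difference missed the threshold without wild type cGAMP replicate 1 (adjusted p = 0.0589), without Tmem173-/- cGAMP replicate 2 (adjusted p = 0.0747) and with limma-trend on FPKM (adjusted p = 0.0543).

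Igkc, the kappa light chain constant region carried by most mouse B cells, did not pass the test in either genotype. It stood at 2267, 2429 and 2186 CPM in cGAMP libraries labelled Tmem173-/- and at 2303, 2225 and 2098 CPM in their controls. Among wild type libraries it was at 1936, 2402 and 2201 CPM with cGAMP and 2206, 2418 and 2782 CPM without. All 4 groups overlapped. The log2 fold change with cGAMP was 0.05 (SE 0.12) in cells labelled Tmem173-/- and -0.18 (SE 0.12, edgeR adjusted p = 0.216) in wild type cells. The difference between the responses was 0.23 (SE 0.16, edgeR adjusted p = 0.299). Whether Igkc responded less than Ighm or Ighd was not tested gene against gene.

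Iglc2 encodes a lambda light chain constant region. It stood at 426, 465 and 509 CPM in cGAMP libraries labelled Tmem173-/- and at 421, 441 and 343 CPM in their controls. The wild type values were 244, 362.02 and 261 CPM with cGAMP and 361.98, 480 and 457 CPM without, so that cGAMP replicate 2 just overlapped control replicate 1. Iglc2 fell by 33.2% with cGAMP in wild type cells (log2 fold change -0.58, SE 0.15, edgeR adjusted p = 0.00445). It had a log2 fold change of 0.22 (SE 0.15, edgeR adjusted p = 1) in cells labelled Tmem173-/-, and the responses differed by 0.80 (SE 0.21, edgeR adjusted p = 0.00894).

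Its neighbours in the lambda locus, which are not members, were read for comparison. Iglc3 stood at 149, 167 and 162 CPM in cGAMP libraries labelled Tmem173-/- and at 155, 160 and 139 CPM in their controls, against 69.4, 94.0 and 70.9 CPM in wild type cGAMP libraries and 138, 172 and 179 CPM in wild type controls. It fell by 52.1% in wild type cells (log2 fold change -1.06, SE 0.12, edgeR adjusted p = 2.91e-06), with no overlap, and the responses differed by 1.13 (SE 0.17, edgeR adjusted p = 0.00012). Iglc1 fell in wild type cells (log2 fold change -0.50, SE 0.16, edgeR adjusted p = 0.0216), a call that held in 18 of 22 alternatives. Iglc4, with 271 counts over all libraries, had -1.08 (SE 0.50, edgeR adjusted p = 0.0875). Iglc3 made up 22.7 ± 0.402% of lambda constant region FPKM in cGAMP libraries labelled Tmem173-/- and 24.1 ± 1.32% in their controls, against 18.6 ± 0.594% in wild type cGAMP libraries and 24.3 ± 0.519% in wild type controls (SD, n = 3 each). Iglc3 and Iglc2 share windows of sequence, so how far this share depends on the assignment of shared reads was not tested.

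**Figure D1:**
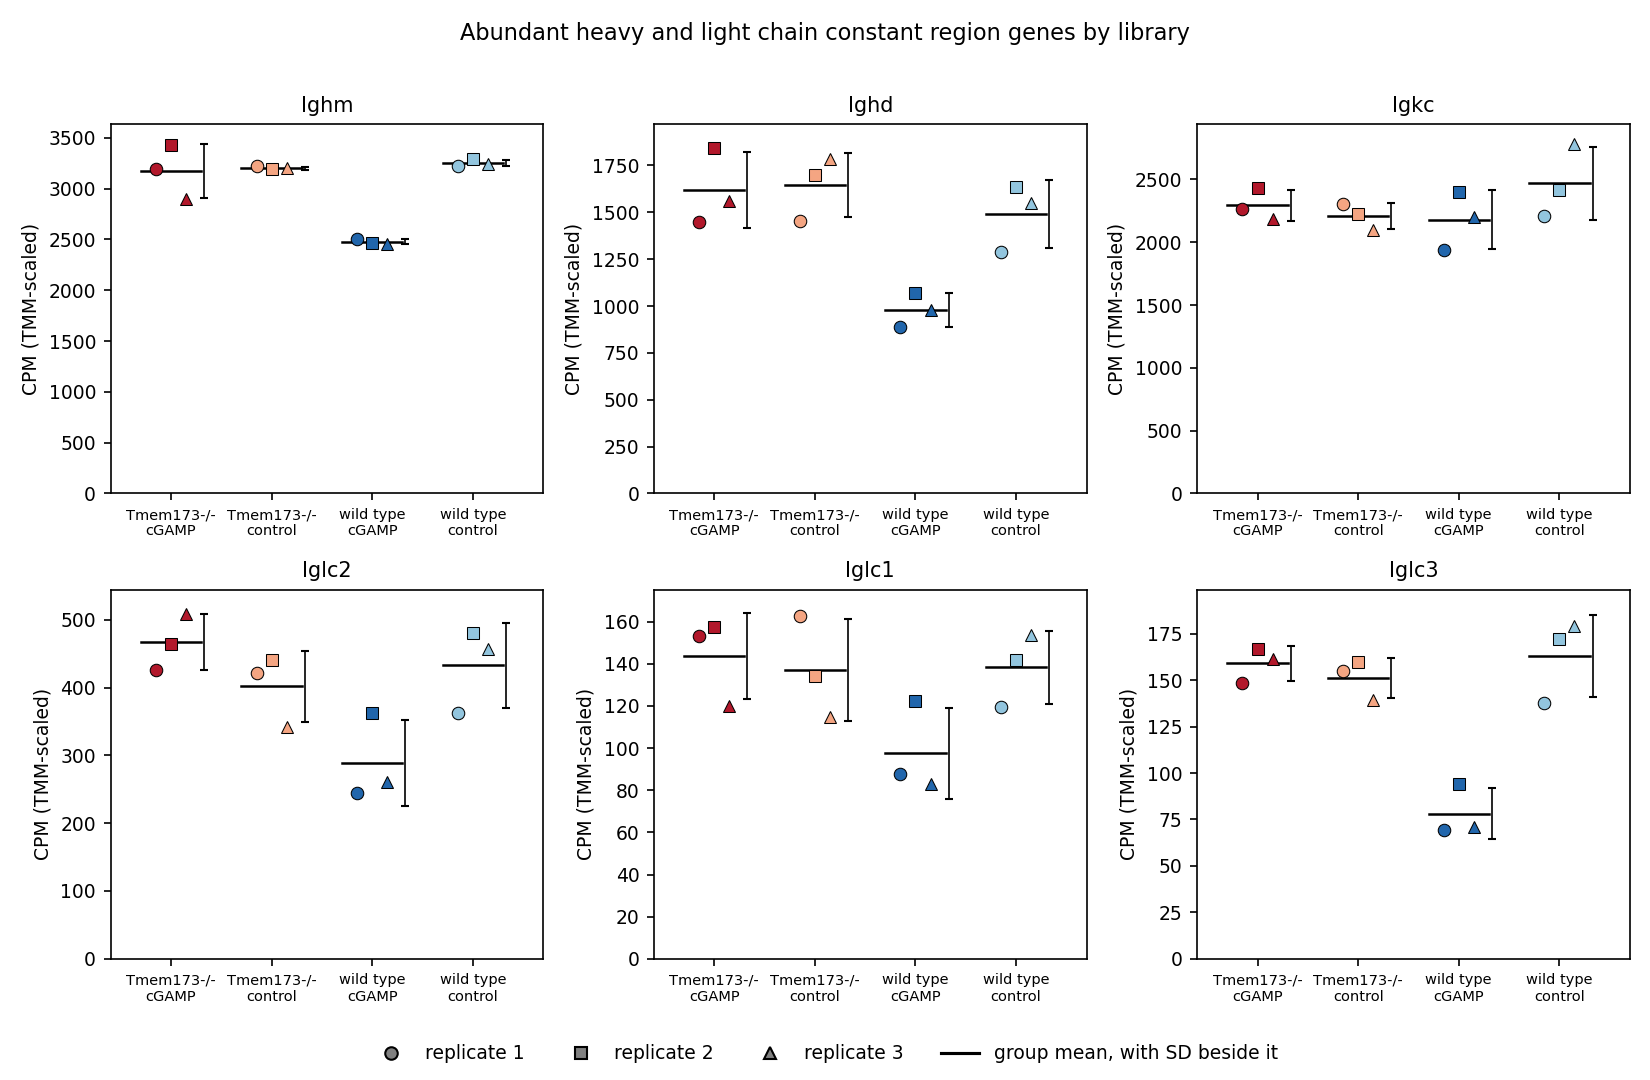
CPM after TMM scaling on the vertical axis of Ighm, Ighd, Igkc, Iglc2 and, for comparison, Iglc1 and Iglc3, with 1 point per library, the group mean as a line and the SD as a bar. The 3 wild type cGAMP libraries lie lowest for Ighm (2458 to 2506 CPM), Ighd (887 to 1069 CPM) and Iglc3 (69.4 to 94.0 CPM), and the groups overlap for Igkc.

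In wild type cells, 3 of the 9 tested members thus passed the test with cGAMP, all lower, which is 33.3%. Over all 14473 genes tested in that comparison, 47.8% passed in either direction and 25.4% were lower, so the members' share lay near that of all genes. For 2 members, Ighm and Ighd, the wild type groups did not overlap, against 54.4% of all genes. The median log2 fold change over the 9 members was 0.13, beside -0.00 over all genes tested. In cells labelled Tmem173-/-, edgeR called 0 of 9 members and 0% of all genes, with 203 of all genes and no member at an unadjusted p under 0.05, and DESeq2 and limma-voom also called 0 genes. No member had groups without overlap there, against 6.64% of all genes. Member log2 fold changes there lay between -0.41 and 0.22. The difference between the responses passed for 3 of 9 members, all with a higher value in cells labelled Tmem173-/-, against 31.6% of all genes in either direction and 17.5% higher. That count was 1 without wild type cGAMP replicate 1 and 1 without Tmem173-/- cGAMP replicate 2.

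**Figure D2:**
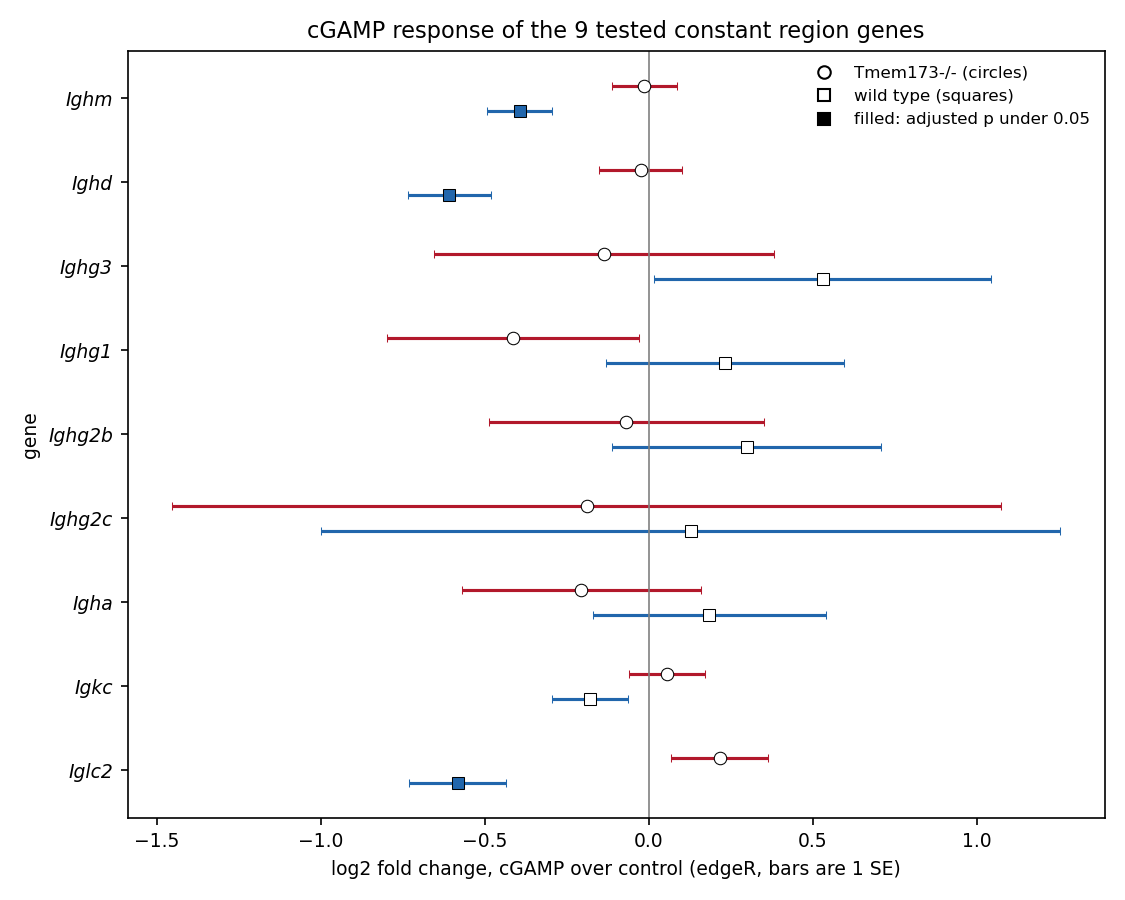
Log2 fold change of cGAMP over control on the horizontal axis for the 9 tested members, with bars of 1 SE, circles for libraries labelled Tmem173-/- and squares for wild type. Filled symbols passed an edgeR adjusted p of 0.05, which only Ighm (-0.39), Ighd (-0.61) and Iglc2 (-0.58) in wild type cells did.

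Shares of the members within each library were compared next. Together the 10 members held 0.758 ± 0.0427% of library counts in cGAMP libraries labelled Tmem173-/- and 0.754 ± 0.0261% in their controls, against 0.609 ± 0.0375% in wild type cGAMP libraries and 0.747 ± 0.0445% in wild type controls (SD, n = 3 each). The wild type groups did not overlap, with an exact two-sided permutation p of 0.1, the smallest that 3 against 3 libraries allow. Of 24 such comparisons of single values per library, none had a Benjamini-Hochberg adjusted p under 0.3 in these exact tests.

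The log2 ratio of Ighd to Ighm FPKM was -0.85, -0.60 and -0.60 in cGAMP libraries labelled Tmem173-/- and -0.85, -0.62 and -0.55 in their controls, against -1.21, -0.91 and -1.03 in wild type cGAMP libraries and -1.03, -0.72 and -0.77 in wild type controls. Replicate 1 had the lowest ratio in every group, and the wild type cGAMP and control groups overlapped (difference of means -0.21, exact permutation p = 0.2). With cGAMP in both, the libraries labelled Tmem173-/- all had a higher ratio than the wild type ones (difference 0.37, exact permutation p = 0.1).

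Kappa made up 84.2%, 83.9% and 81.1% of the FPKM of Igkc and Iglc2 in cGAMP libraries labelled Tmem173-/- and 84.5%, 83.5% and 86.0% in their controls. In wild type libraries the share was 88.8%, 86.9% and 89.4% with cGAMP and 85.9%, 83.4% and 85.9% without. The wild type cGAMP libraries thus lay above the other 9, by 3.29 percentage points over wild type controls (exact permutation p = 0.1). With all 4 lambda genes in the sum, the share averaged 81.6% in wild type cGAMP libraries and 75.8% in wild type controls.

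**Figure D3:**
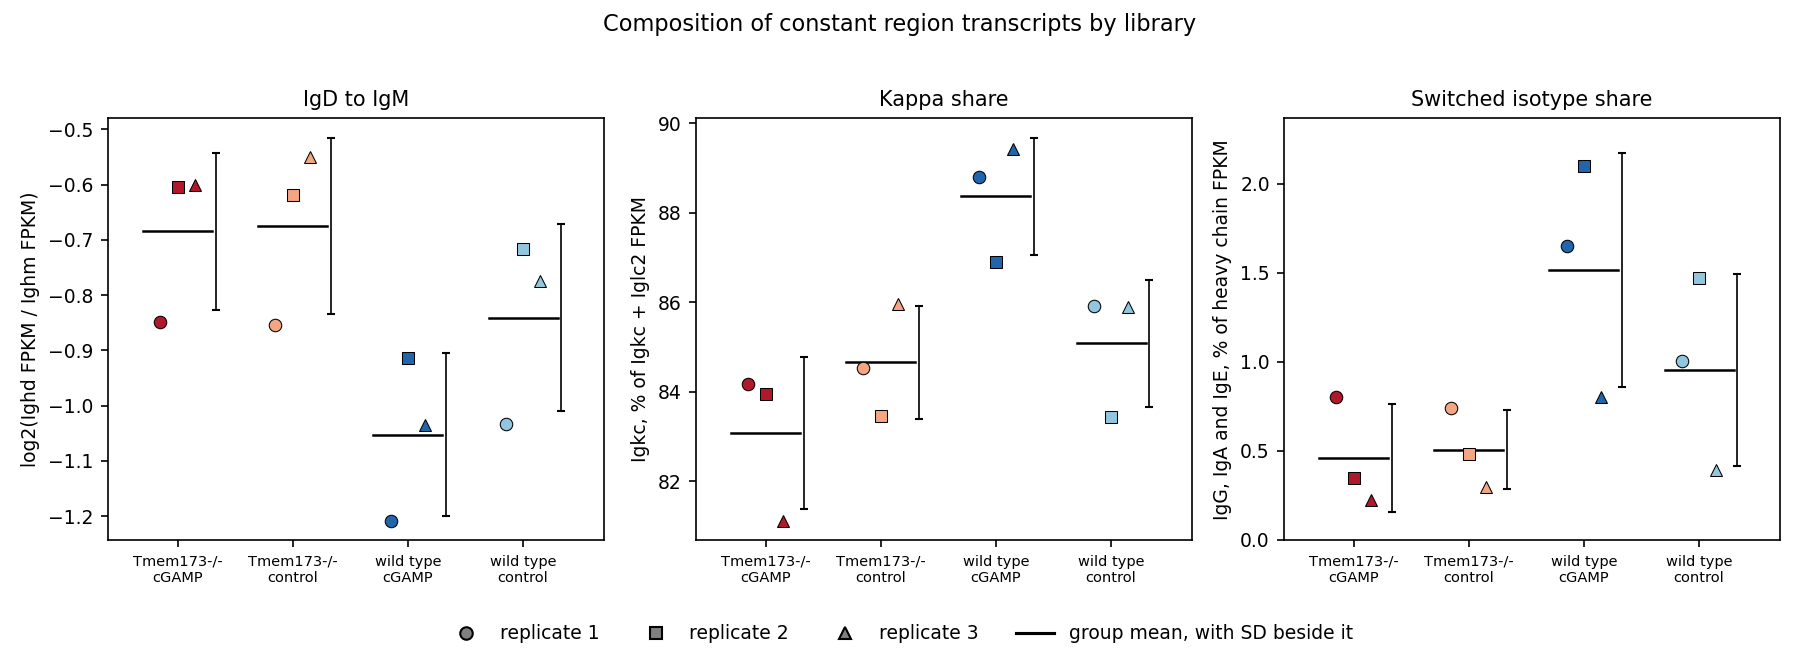
Per library, the log2 ratio of Ighd to Ighm FPKM, the percentage of Igkc in Igkc plus Iglc2 FPKM, and the percentage of IgG, IgA and IgE genes in heavy chain FPKM, with group means as lines and SD as bars; the first 2 vertical axes do not start at 0. The kappa share of the 3 wild type cGAMP libraries (86.9% to 89.4%) lies above all others, and the switched share overlaps between wild type cGAMP and control libraries.

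The switched classes had few counts and wide spread. Ighg2c, the heavy chain gene of IgG2c, stood at 12.2, 3.10 and 0.374 CPM in cGAMP libraries labelled Tmem173-/- and at 10.6, 4.94 and 2.01 CPM in their controls. In wild type cells it stood at 20.7, 40.3 and 6.91 CPM with cGAMP and 16.7, 42.1 and 3.43 CPM without. Between its lowest and highest library lay a 113-fold range, from 11 to 1195 counts, the widest of the 9 tested members, while Ighm spanned 1.40-fold. The wild type cGAMP and control libraries overlapped fully, and replicate 2 was highest and replicate 3 lowest in both groups. The log2 fold change with cGAMP was -0.19 (SE 1.26, edgeR adjusted p = 1) in cells labelled Tmem173-/- and 0.13 (SE 1.13, edgeR adjusted p = 0.939) in wild type cells, so each SE was wider than a 2-fold change.

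Ighg2b, the gene of IgG2b, stood at 14.3, 7.96 and 4.11 CPM in cGAMP libraries labelled Tmem173-/- and at 12.4, 9.17 and 5.95 CPM in their controls. Wild type cells had 18.0, 12.7 and 11.6 CPM with cGAMP and 15.2, 10.6 and 8.59 CPM without. Each wild type cGAMP value was above the control of the same number, but the groups overlapped (log2 fold change 0.30, SE 0.41, edgeR adjusted p = 0.582). In cells labelled Tmem173-/- the log2 fold change was -0.07 (SE 0.42).

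Ighg3, the gene of IgG3, stood at 7.03, 3.69 and 1.97 CPM in cGAMP libraries labelled Tmem173-/- and at 7.29, 4.47 and 2.08 CPM in their controls. Among wild type libraries it was at 7.43, 4.79 and 6.23 CPM with cGAMP and 6.23, 2.32 and 4.20 CPM without. All 3 wild type cGAMP values were above the same-numbered controls, but the groups overlapped and the difference did not pass (log2 fold change 0.53, SE 0.51, edgeR adjusted p = 0.426). With a block for replicate number the log2 fold change was 0.59 (SE 0.18, edgeR adjusted p = 0.0111). The labels do not give such pairs, and the difference passed in 2 of 22 alternatives.

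Igha, the gene of IgA, the class of mucosal secretions, stood at 3.65, 5.26 and 4.42 CPM in cGAMP libraries labelled Tmem173-/- and at 3.89, 5.71 and 5.80 CPM in their controls. The wild type values were 6.77, 9.47 and 3.56 CPM with cGAMP and 5.13, 8.90 and 3.39 CPM without. Both pairs of groups overlapped, with log2 fold changes of -0.21 (SE 0.36) in cells labelled Tmem173-/- and 0.19 (SE 0.36) in wild type cells, neither past the test.

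Ighg1, the gene of IgG1, stood at 1.34, 0.832 and 1.22 CPM in cGAMP libraries labelled Tmem173-/- and at 1.70, 1.68 and 1.13 CPM in their controls. In wild type cells it stood at 3.86, 1.89 and 1.46 CPM with cGAMP and 2.67, 2.11 and 1.34 CPM without. Wild type cGAMP replicate 1 was the highest library of all. The log2 fold change with cGAMP was -0.41 (SE 0.38) in cells labelled Tmem173-/- and 0.23 (SE 0.36) in wild type cells, neither past the test, and the value in wild type cells was -0.29 without wild type cGAMP replicate 1.

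The order of the 3 replicates was the same with and without cGAMP for 5 of 5 tested switched members in wild type cells and for 3 of 5 in cells labelled Tmem173-/-. Over all tested members it was the same for 7 of 9 in wild type cells and 3 of 9 in cells labelled Tmem173-/-. The share among all genes was not computed. Switched genes together made up 0.802%, 0.349% and 0.225% of heavy chain FPKM in cGAMP libraries labelled Tmem173-/- and 0.738%, 0.481% and 0.297% in their controls. In wild type libraries the share was 1.65%, 2.10% and 0.805% with cGAMP and 1.00%, 1.47% and 0.392% without, and these groups overlapped (exact permutation p = 0.4). With cGAMP every library labelled Tmem173-/- was below every wild type one, with 0.802% against 0.805% at the closest pair (exact permutation p = 0.1). Ighg2c alone held 4.73% to 41.9% of switched FPKM in cGAMP libraries labelled Tmem173-/- and 17.2% to 39.3% in their controls, against 32.0% to 68.4% in wild type cGAMP libraries and 23.3% to 73.2% in wild type controls.

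**Figure D4:**
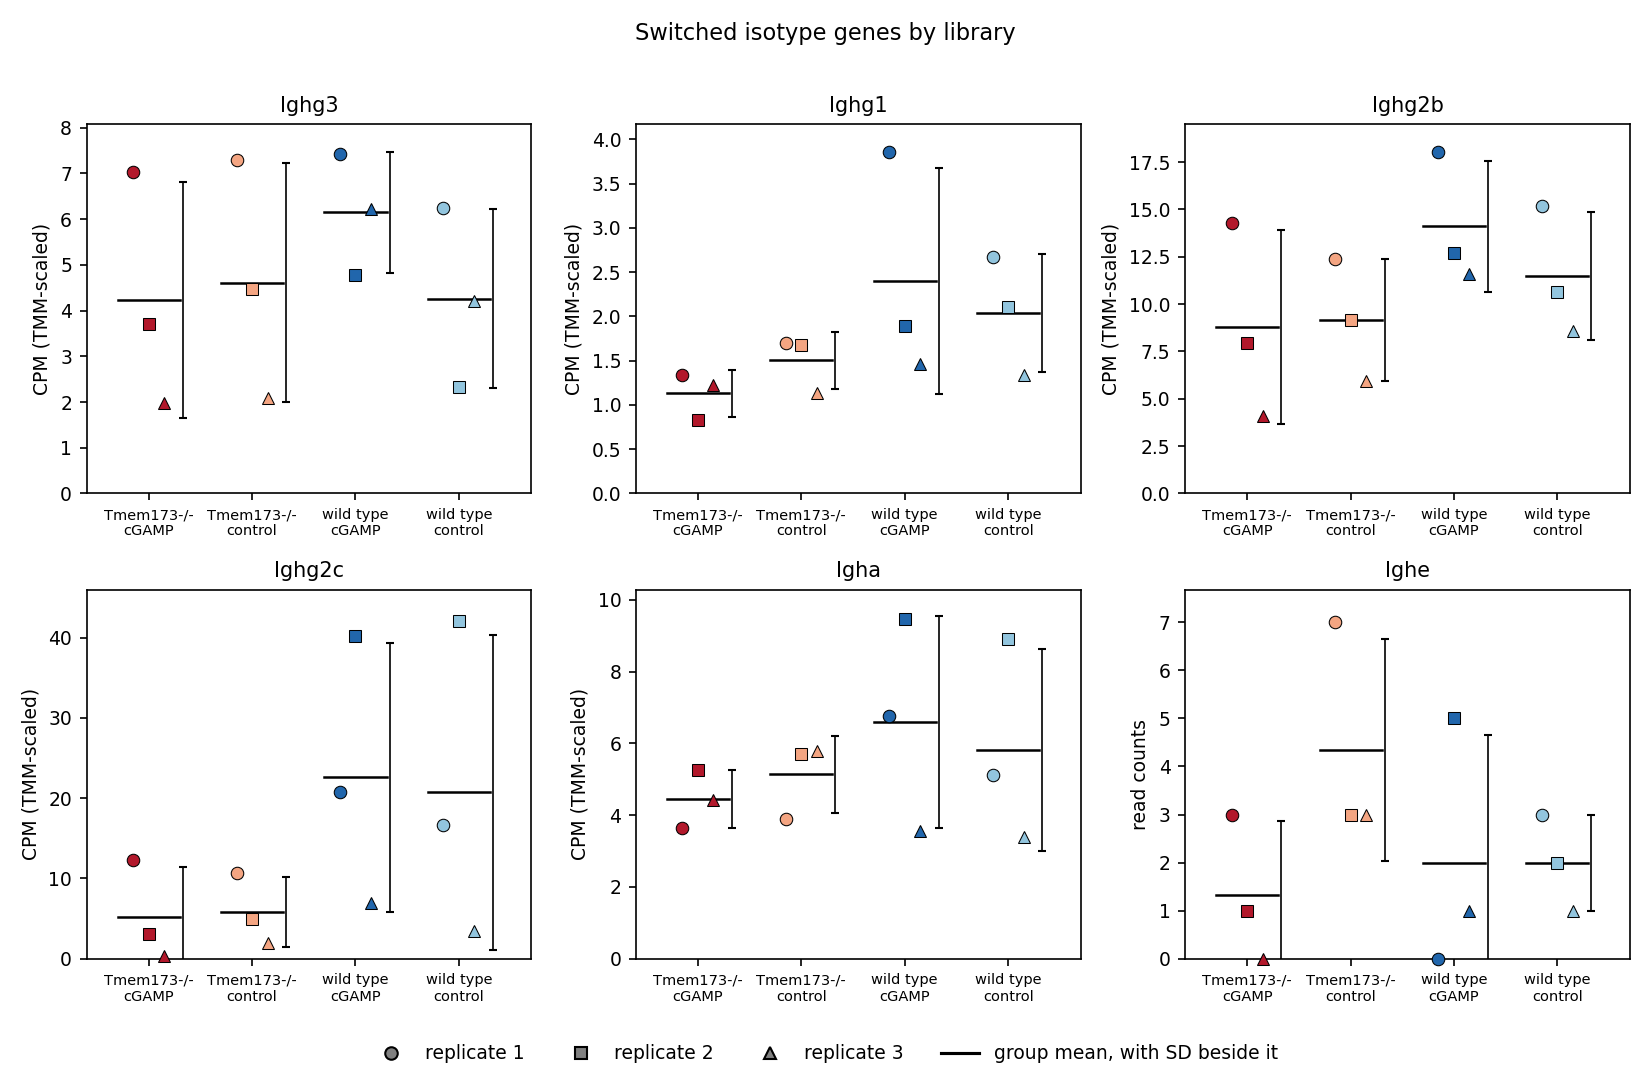
CPM after TMM scaling of Ighg3, Ighg1, Ighg2b, Ighg2c and Igha, and read counts of Ighe, with 1 point per library, the group mean as a line and the SD as a bar that is drawn no lower than 0. Groups overlap between cGAMP and control for every gene, and Ighg2c runs from 0.374 to 42.1 CPM.

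Controls of the 2 genotypes were compared to ask whether the members differed before any cGAMP. EdgeR called 0 of 9 members and 0% of all genes, with 921 of all genes and no member at an unadjusted p under 0.05, while DESeq2 called 4 genes and limma-voom 0. For 1 member, Ighm, the groups did not overlap, against 9.09% of all genes, with a log2 fold change of -0.02 (SE 0.10, edgeR adjusted p = 0.967). The sign of that value turned to 0.03 with library totals alone in place of TMM. Ighg2c had the largest log2 fold change, -1.81 (SE 1.21, edgeR adjusted p = 0.746).

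With cGAMP in both, the cells labelled Tmem173-/- were higher than wild type in Ighm, Ighd and Iglc2 and lower in Ighg1. Log2 fold changes were 0.36 for Ighm (SE 0.10, edgeR adjusted p = 0.00704), 0.73 for Ighd (SE 0.13, edgeR adjusted p = 0.000193) and 0.69 for Iglc2 (SE 0.15, edgeR adjusted p = 0.0012). Ighg1 had -1.09 (SE 0.38, edgeR adjusted p = 0.0256). These 4 of 9 members (44.4%) compare with 48.3% of all genes, and the groups did not overlap for 4 members, against 58.9% of all genes. The wild type cGAMP libraries also enter the comparison with wild type controls. The Ighg1 value kept its sign in all 22 alternatives and passed the threshold in 17, and its call depended on single libraries. Without wild type cGAMP replicate 1 it was -0.57 (edgeR adjusted p = 0.229), and without Tmem173-/- cGAMP replicate 2 its adjusted p was 0.106. Wild type cGAMP replicate 1 was also the library with the highest neutrophil and NK cell marker sums, and the part of those cells in the value was not tested. Ighg2c had -2.13 (SE 1.23, edgeR adjusted p = 0.19) and did not pass.

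Summed variable segments, which supply the binding site of the same chains, are given as levels with no test. Heavy chain segments summed to 688 ± 98.2 CPM in cGAMP libraries labelled Tmem173-/- and 731 ± 12.2 CPM in their controls, against 471 ± 10.1 CPM in wild type cGAMP libraries and 709 ± 34.8 CPM in wild type controls (SD, n = 3 each). Kappa segments summed to 1659 ± 157 and 1679 ± 98.9 CPM in cGAMP and control libraries labelled Tmem173-/-, against 1491 ± 164 and 1826 ± 261 CPM in wild type cGAMP and control libraries. Lambda segments summed to 222 ± 20.1 and 210 ± 18.1 CPM, against 170 ± 21.2 and 208 ± 28.5 CPM, in the same order of groups. The wild type cGAMP and control libraries overlapped for kappa and lambda segments but not for heavy chain segments.

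Genes that act with the members were read as 5 lists. In wild type cells with cGAMP, 22.4% of all 14473 tested genes were higher and 25.4% lower, with a median log2 fold change of -0.0036. Of 6 partner chains of the antigen receptor, 3 could be tested, and all 3 were lower in wild type cells with cGAMP, with a median log2 fold change of -1.31. Cd79a and Cd79b, which carry the signal of the receptor, had -1.07 (SE 0.11, edgeR adjusted p = 1.35e-06) and -1.31 (SE 0.13, edgeR adjusted p = 4.76e-07). Vpreb3, a light chain-like protein, had -1.88 (SE 0.21). Cd79b stood at 1324, 1541 and 1459 CPM in cGAMP libraries labelled Tmem173-/- and at 1360, 1513 and 1352 CPM in their controls, against 505, 676 and 561 CPM in wild type cGAMP libraries and 1246, 1499 and 1584 CPM in wild type controls. The wild type cGAMP libraries did not overlap with any other group.

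Of the receptors that bind immunoglobulin, 8 of 12 were lower and 1 higher in wild type cells with cGAMP, with a median of -0.62, against 25.4% of all genes lower and 22.4% higher. Fcmr, a receptor for IgM, had a log2 fold change of -1.64 (SE 0.11, edgeR adjusted p = 1.35e-08), and Fcer2a, the low-affinity IgE receptor CD23, had -2.10 (SE 0.24, edgeR adjusted p = 2.51e-05). Fcrla, an intracellular Fc receptor-like protein of B cells, had -1.50 (SE 0.14), and Fcgrt, the neonatal Fc receptor, had -1.24 (SE 0.46, edgeR adjusted p = 0.0361). The Fcgrt call rested on means of 0.368 CPM in wild type cGAMP libraries and 0.872 CPM in wild type controls, and held in 14 of 22 alternatives.

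Of 25 genes of class switch recombination, 12 were higher and none lower in wild type cells with cGAMP by edgeR, and the median was 0.26. Of all genes, 22.4% were higher and 47.8% were called in either direction. The kinase gene Atm, which signals DNA breaks, had a log2 fold change of 2.42 (SE 0.09, edgeR adjusted p = 3.8e-11), with means of 476 ± 26.7 CPM in wild type cGAMP libraries and 89.0 ± 8.74 CPM in wild type controls. The nuclease gene Exo1 had 1.14 (SE 0.19), Ung, the glycosylase that removes uracil from DNA, had 0.96 (SE 0.11), and Rif1, which protects broken ends, had 0.81 (SE 0.08). Most of these genes also serve DNA repair outside B cells.

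Of 22 factors of immunoglobulin transcription and RNA processing, 4 were higher and 10 lower, with a median of -0.22, where 22.4% of all genes were higher and 25.4% lower. The Ikaros gene Ikzf1 had a log2 fold change of -1.40 (SE 0.09), the germinal centre repressor gene Bcl6 had -1.23 (SE 0.10), and Batf, a factor needed for switching, had 0.84 (SE 0.12). Zfp318, which is needed for the Ighd splice product, was at 139 ± 13.2 CPM in wild type cGAMP libraries and 192 ± 30.9 CPM in wild type controls (log2 fold change -0.47, SE 0.13, edgeR adjusted p = 0.00876), a call kept in 20 of 22 alternatives. Hnrnpll, a splicing regulator of plasma cells, rose by 1.34 (SE 0.44, edgeR adjusted p = 0.0202) at means of 2.37 CPM in wild type cGAMP libraries and 0.933 CPM in wild type controls, and kept the call in 20 of 22 alternatives.

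Of 21 measured genes of antibody secretion, 3 were higher and 10 lower, with a median of -0.37, beside the same 22.4% and 25.4% of all genes. Sdc1, the plasma cell surface protein syndecan-1, had a log2 fold change of -1.87 (SE 0.12, edgeR adjusted p = 6.04e-09), Mzb1, a chaperone of IgM, had -0.75 (SE 0.13), and Prdm1, the regulator Blimp-1, had -0.66 (SE 0.19, edgeR adjusted p = 0.00991). Tent5c, a poly(A) polymerase acting on immunoglobulin RNA, had 0.76 (SE 0.22, edgeR adjusted p = 0.0141). Xbp1, the secretory regulator, had -0.37 (SE 0.10, edgeR adjusted p = 0.00466). The joining chain gene Jchain stood at 62.0, 68.0 and 44.3 CPM in wild type cGAMP libraries and at 60.0, 49.8 and 52.0 CPM without cGAMP. These groups overlapped and the difference did not pass (log2 fold change 0.11, SE 0.51).

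In cells labelled Tmem173-/-, edgeR called no gene of these 5 lists. The difference between the responses passed for 3 of 3 tested partner chains (all higher in cells labelled Tmem173-/-), 6 of 12 receptors (5 higher), 9 of 25 switch genes (all lower), 10 of 22 transcription and processing factors (8 higher) and 9 of 21 secretion genes (7 higher). Of all genes, 31.6% passed, 17.5% higher and 14.1% lower. The B cell markers, of which 6 of 8 were lower and 2 higher in wild type cells with cGAMP, share Cd79a, Cd79b, Cd22, Pax5 and Fcmr with these lists, and the part of cell number in the lower members was not tested.

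Genes with the most similar profile were sought among 9490 genes with a mean of at least 5 CPM, by the root mean square difference of centred log2 CPM over the 12 libraries. Nearest to Ighm were Mlec, Smarcd2 and Stk24, at 0.0499, 0.0516 and 0.0547, where the spread (SD) of Ighm itself was 0.177. Nearest to Ighd were Cd38, a surface enzyme of B cells, at 0.0456, then Rnf144a at 0.0688 and Il4ra, the interleukin-4 receptor, at 0.0697, with a spread of 0.347 for Ighd. Nearest to Igkc were Yme1l1, Mynn and Insig1, at 0.0516 to 0.0559, with a spread of 0.129. Igha had no gene as near, since Ikbke, Xlr4b and Dennd2d lay at 0.243, 0.282 and 0.291 with a spread of 0.49. All profiles share the same 12 libraries, and the likeness is a description.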

How the data were processed

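Members and gene lists were chosen with earlier results of these data known. The authors deposited whole-number counts per gene and FPKM, which per the submitters' processing notes came from fastp, STAR and featureCounts on GRCm38 (mm10). Versions, annotation and strand settings are not given in the sources used here. The deposited FPKM equalled count over column total over a gene length that matched the listed exonic length for 42.8% of 26792 genes. Among the members it matched only for Igkc, and was shorter elsewhere (1595 against 1886 bases for Ighm).

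Counts were tested in R 4.3.3 with edgeR 4.0.16, using filterByExpr, TMM, a robust quasi-likelihood fit of the 4 group means, two-sided F tests, and Benjamini-Hochberg adjustment over 14473 genes per contrast (5 contrasts, threshold 0.05). The fit was also run on simulated counts, drawn independently for each library and with fewer changed genes than were called here. That run did not include shared mice and is no check of the results above. DESeq2 1.42.0 and limma 3.58.1 served as alternatives, with other scalings, no filter, 2-group fits, left-out libraries and a replicate block. Levels are CPM; between genes, FPKM. Shares and ratios were compared between groups with exact permutation tests in scipy 1.17.1. Counting error is small for Ighm (68858 counts or more per library) and large for Ighg1 (25 to 106 counts), and PCR copies cannot be told from separate molecules here.

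Cells came from 3 mice per genotype, and the labels do not tie a library to a mouse, so the 6 libraries of a genotype cannot all be from different mice and p-values measure the spread between these libraries. Deviations from the group means over 9491 genes correlated between same-numbered cGAMP and control libraries labelled Tmem173-/- (r = 0.592, 0.253 and 0.374). Between differently numbered ones, r was 0.219 for cGAMP replicate 3 with control replicate 2. It was 0.106 for cGAMP replicate 2 with control replicate 3 and negative for the rest. Libraries were nonetheless not paired in the main fit or the permutation tests. Replicate numbers entered a test only in the replicate block. Named genes were all members, the other lambda genes, Tmem173, up to 4 genes per list with the largest wild type change past the threshold, and the 3 nearest profiles of Ighm, Ighd, Igkc and Igha. Jchain, Xbp1 and Zfp318 were named in addition, after their values were seen. Some genes of the lists are not reported here by name.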

Additional observations from a re-analysis of the deposited data

Results flagged for a closer look

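Responses to cGAMP differed between cells labelled Tmem173-/- and wild type cells, by the edgeR interaction test at an adjusted p of 0.05, for 3 members. The log2 fold change in cells labelled Tmem173-/- minus that in wild type cells was 0.38 for Ighm, 0.58 for Ighd and 0.80 for Iglc2. The Ighm value (edgeR adjusted p = 0.0495) passed in only 6 of 21 alternatives, against 18 for Ighd and 21 for Iglc2. The same difference was 1.13 for the lambda gene Iglc3.

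Of the genes that act with the members, the same difference was 2.01 for Vpreb3, 1.35 for Cd79b, 1.05 for Cd79a, 1.37 for Ikzf1, 1.23 for Bcl6, 1.88 for Sdc1, 0.98 for Mzb1, 2.04 for Fcer2a, 1.56 for Fcmr and 1.53 for Fcrla. It was negative for Atm (-2.45), Exo1 (-1.45), Ung (-1.03), Rif1 (-0.84), Batf (-0.64) and Tent5c (-0.90). The Tent5c value passed in 13 of 21 alternatives, with adjusted p up to 0.108, and was -0.59 without Tmem173-/- control replicate 1 (edgeR adjusted p = 0.0575). For Tmem173 itself it was 1.02. Groups of 3 libraries are too small for a test of single outlying libraries.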

How the results depend on the processing

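Of 2752 values recomputed under alternatives, 2602 kept their direction and their side of the threshold, 52 were no longer past it, 30 came past it, 54 turned in sign and 14 moved. The cause of these changes was not tested. Ighm, Ighd and Iglc2 were lower with cGAMP in wild type cells and past the threshold in all 22 alternatives each. No scaling moved the median of all genes by more than 0.1 on the log2 scale. At the depth of these libraries Ighe could not be tested.

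Same-numbered wild type libraries did not all deviate together (r = 0.495, 0.289 and 0.0411). With the replicate block, Ighg3 in wild type cells had 0.59 (edgeR adjusted p = 0.0111) and its interaction -0.73 (adjusted p = 0.0343). The interaction of Iglc1 was 0.59 (adjusted p = 0.00879). Between genotypes the block was replicate number alone, which matched libraries that cannot share a mouse. Same-numbered cGAMP libraries of different genotype had r = 0.270, 0.126 and 0.0745. With that block and cGAMP in both, Ighg2b had -0.79 (edgeR adjusted p = 0.0016) and Ighg2c -2.35 (adjusted p = 0.0463). In the main fit these edgeR adjusted p were 0.201 and 0.19. The block within genotypes changed no call in cells labelled Tmem173-/-.

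Members called numbered 1 for the interaction with limma-trend on log2(FPKM + 1), and with no filter on low counts 1 between controls and 8 between genotypes with cGAMP. The member called between controls was Ighg2c, with an edgeR adjusted p of 8.28e-31, against 0.746 in the main fit. Its counts were 468, 1195 and 97 in wild type controls and 325, 147 and 55 in controls labelled Tmem173-/-, so these groups overlapped. Without a filter, edgeR called 23 genes in cells labelled Tmem173-/- and 151 between controls. Leaving out single libraries gave 1 to 3 members called for the interaction. With all lambda genes, the kappa share differed by 5.76 points between wild type cGAMP and control libraries and by -8.00 points between genotypes with cGAMP. The choice to set counts per exonic length in place of FPKM was added after the data were seen and turned the sign of none of 16 differences. No comparison of 3 against 3 libraries by exact permutation can pass 0.05.

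Signs turned for values that were never past the threshold. Without both wild type replicate 1 libraries, Ighg1 in wild type cells had -0.047 and Igkc between genotypes with cGAMP -0.00080. With library totals alone, Tmem173 in cells labelled Tmem173-/- had -0.0021, and between controls Ighm had 0.028, Iglc1 0.038 and Tmem173 0.011. With limma-trend between controls Ighm had 0.029, Iglc1 0.032 and Tmem173 0.0042.

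With single libraries left out, log2 fold changes in wild type cells ran from -0.29 to 0.49 for Ighg1, -0.59 to 1.17 for Ighg2c, -0.17 to 0.63 for Igha and -0.024 to 0.26 for Jchain. In cells labelled Tmem173-/- they ran from -0.071 to 0.049 for Ighm, -0.13 to 0.049 for Ighd, -0.71 to 0.36 for Ighg3, -0.60 to 0.27 for Ighg2b, -1.76 to 0.56 for Ighg2c, -0.049 to 0.21 for Iglc1, -0.72 to 0.14 for Iglc4 and -0.081 to 0.093 for Tmem173. Interactions ran from -1.88 to 0.43 for Ighg2c and -1.04 to 0.14 for Jchain. Between controls they ran from -0.37 to 0.50 for Ighg3, -0.45 to 0.27 for Igha, -0.15 to 0.10 for Iglc1, -0.30 to 0.16 for Iglc4 and -0.12 to 0.057 for Tmem173, and between genotypes with cGAMP from -0.0016 to 0.15 for Igkc.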
